A study of Rattus norvegicus with 24 samples.

Results

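Rats that had eaten rotenone for 14 days were compared with rats that had eaten it for 3 days, to describe which transcripts of the heart fell further, rose late or returned towards control levels while feeding went on. The comparison took every array labelled as rotenone heart at either time, 4 rats at each, which made 8 of the 24 arrays of the series. The same difference in 8 rats on untreated feed, 4 at day 14 and 4 at day 3, is given beside it. All were male RccHan Wistar rats aged 7 to 8 weeks at assignment to the groups, and the treated feed held 400 ppm rotenone against 0 ppm in controls. In both feeds the day 14 rats were older at necropsy than the day 3 rats, so age moved with the days compared. Each array carried RNA from the apex of the left ventricle of 1 rat. No controls with food intake or body weight held equal to the treated rats are described, and the treated rats weighed less than controls, so an effect of rotenone and one of lower weight cannot be told apart. The hour of necropsy is not given in the sources used here.

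Rotenone is a plant compound that blocks complex I, the entry point of the mitochondrial respiratory chain. The heart depends on that chain for most of its energy. Between its muscle cells lies a matrix of collagens and elastic fibres, made mainly by fibroblasts, and basement membranes that surround muscle cells and vessels. RNA of the globins and of heme synthesis enzymes reaches a heart sample with young red cells in its blood. The transcription factor Nrf2 raises enzymes that handle quinones, glutathione and thioredoxin when cells are exposed to oxidants or electrophiles. The circadian clock of the heart is a loop in which Bmal1 with Clock or Npas2 drives the period, cryptochrome and reverse-erb genes, whose products repress them.

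Values are log2 intensities per transcript cluster, the unit of measurement of this array, and 1 transcript cluster stood for each of 22093 genes. The 16 arrays of days 3 and 14 had median intensities between 30.59 and 36.34 and a mean correlation with their own group between 0.9796 and 0.9912. Negative control probes had a median of 4.961 and a 95th percentile of 8.443, which is used below as the background bound. Only 14.7% of transcript clusters had a mean above that bound. The 8 cardiomyocyte markers all lay above it, with a mean level between 16.89 and 17.46 on each of these arrays, while markers of nerve, mesothelium and granulocytes had 0 members above it. Rotenone day 14 rat 1 stood apart from its group in many of the results. In 40 of the 60 transcript clusters that passed the test its value was the one nearest to day 3, against 13, 3 and 4 for rats 2, 3 and 4, and its array had the highest median of the 16 (5.183). Its mean correlation with its group was 0.98, the lowest of the 8 rotenone arrays of these days and just above the lowest of the 16 (0.9796). Values without that rat are given beside the results that it moved most. Because the rat was singled out on these same values, they describe how far a result rests on it.

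The promoters of 5 called genes and 1 clock gene are shown first, 250 bases before to 50 after the start site, from RefSeq on build GRCr8. Of the 42 genes that passed the test, 28 had an entry. The globin promoters come first, because globins had the largest falls. Capitals mark CCAAT and TATAAA on either strand, which do not overlap each other. They are Hba-a1 (chr10:15842531-15842830, minus strand), Hbb-bs (chr1:167631581-167631880, minus strand) and Hbb-b1 (chr1:167643471-167643770, minus strand).
Hba-a1: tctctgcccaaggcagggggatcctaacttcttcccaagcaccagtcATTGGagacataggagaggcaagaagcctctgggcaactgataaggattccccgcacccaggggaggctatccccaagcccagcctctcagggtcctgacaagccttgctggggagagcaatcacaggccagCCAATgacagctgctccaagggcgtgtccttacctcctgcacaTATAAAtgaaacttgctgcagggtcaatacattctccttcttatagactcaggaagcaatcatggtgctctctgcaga
Hbb-bs: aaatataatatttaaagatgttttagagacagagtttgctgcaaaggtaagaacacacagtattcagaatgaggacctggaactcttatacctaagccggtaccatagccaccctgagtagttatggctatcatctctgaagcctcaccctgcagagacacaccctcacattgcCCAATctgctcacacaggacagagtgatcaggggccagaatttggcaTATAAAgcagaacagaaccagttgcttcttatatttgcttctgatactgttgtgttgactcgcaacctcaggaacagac
Hbb-b1: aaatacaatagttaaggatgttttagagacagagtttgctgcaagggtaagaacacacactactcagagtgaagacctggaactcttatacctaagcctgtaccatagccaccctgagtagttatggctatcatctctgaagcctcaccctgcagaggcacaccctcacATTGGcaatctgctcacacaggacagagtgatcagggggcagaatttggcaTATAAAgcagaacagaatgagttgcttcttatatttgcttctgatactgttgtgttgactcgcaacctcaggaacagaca

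TATAAA began at base -28, -29 and -30 from the start site of these 3 promoters, and CCAAT on the plus strand at -71 in Hba-a1 and -76 in Hbb-bs. In Hbb-b1 the match to CCAAT was on the minus strand, at -81, and Hba-a1 held another on that strand, at -203. Of 9 globin promoters, 5 held TATAAA and 8 held CCAAT, against 14.2% and 37.5% of all 33469 promoters. Next are 2 genes of the rise in detoxification and redox enzymes, Pir (chrX:33851000-33851299, minus strand) and Gsta3 (chr9:31154739-31155038, plus strand), with capitals on TGACNNNGC, the core of the antioxidant response element, on either strand.
Pir: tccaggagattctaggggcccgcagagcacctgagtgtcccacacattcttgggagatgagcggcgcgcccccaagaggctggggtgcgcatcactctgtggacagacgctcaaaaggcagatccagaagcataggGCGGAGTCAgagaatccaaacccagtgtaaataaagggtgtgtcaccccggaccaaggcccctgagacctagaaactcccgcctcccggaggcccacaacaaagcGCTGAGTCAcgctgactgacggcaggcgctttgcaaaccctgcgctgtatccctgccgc
Gsta3: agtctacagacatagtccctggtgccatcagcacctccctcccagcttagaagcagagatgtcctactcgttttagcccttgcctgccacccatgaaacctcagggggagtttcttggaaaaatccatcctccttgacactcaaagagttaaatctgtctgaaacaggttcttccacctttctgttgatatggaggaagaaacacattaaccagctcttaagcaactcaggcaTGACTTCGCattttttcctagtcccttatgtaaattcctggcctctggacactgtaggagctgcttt

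Pir held 2 matches on the minus strand, at -114 and -9, and Gsta3 held 1 on the plus strand, at -17. The core was found in 12.1% of all promoters, in 9 of 32 promoters of the antioxidant list and in 9 of 37 of the detoxification list. Nqo1 and Hmox1 were not among the genes found with it, and Pir is on neither list. The printed pair therefore does not stand for all redox genes that rose. For a gene with several promoter entries, the entry with the most matches was printed. Tef, an output factor of the clock (chr7:115206577-115206876, plus strand), did not pass the test (0.48 ± 0.16, adjusted p = 0.418) and is shown for the clock genes with its single CACGTG, the E-box that Bmal1 and its partners bind.
Tef: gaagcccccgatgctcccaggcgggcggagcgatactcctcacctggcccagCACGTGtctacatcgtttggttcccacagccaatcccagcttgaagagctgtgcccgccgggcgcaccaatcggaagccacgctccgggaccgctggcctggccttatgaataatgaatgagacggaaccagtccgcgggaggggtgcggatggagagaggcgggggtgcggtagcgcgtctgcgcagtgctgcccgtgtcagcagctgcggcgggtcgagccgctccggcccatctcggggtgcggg

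The E-box was found in 4 of 11 promoters of clock repressors and output factors, namely in Bhlhe40, Ciart, Nr1d1 and Tef, and in 6.42% of all promoters. These matches are a description of the letters in the window.

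Between days 3 and 14 of rotenone, 60 of 68842 transcript clusters differed, which is 0.0872% of those tested, with 19 higher (0.0276%) and 41 lower (0.0596%). These and all adjusted p below come from limma, with Benjamini-Hochberg adjustment over all transcript clusters and a threshold of 0.05. They held 42 genes (0.19%), 13 higher (0.0588% of 22093) and 29 lower (0.131%). In control rats 0 transcript clusters differed between the same days in limma, with 3972 at an unadjusted p of 0.05 (5.77%), against 4954 (7.2%) in rotenone rats. The change in rotenone rats minus the change in control rats was called for 0 transcript clusters, with 3222 at an unadjusted p of 0.05 (4.68%; of genes 1.95% higher and 2.79% lower). So no gene below is shown to change differently under the 2 feeds when all arrays are used. With equal array medians the calls were 1 higher and 22 lower, and with quantile normalization 22 and 34. The share of higher calls was 31.7%, 4.35% and 39.3% under the 3 scalings, although all 42 genes kept their direction. The calls also rest on the spread of all 24 arrays: with the 8 rotenone arrays alone limma called 0, with 4415 at an unadjusted p of 0.05.

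The 4 values of day 14 and the 4 of day 3 did not overlap in 38 of the 42 genes, where 5.47% of all genes had no overlap, and 4.65% in control rats. The 42 genes were selected on these same values, so their lack of overlap follows largely from the selection and is no further evidence. Control rats moved the same way in 26 of the 29 genes that fell, which share no array with the rotenone comparison. Among all genes with a lower value in rotenone rats that share was 52.8%. It was 8 of the 13 genes that rose, against 60.8% of all genes with a higher value. Of the 40 genes with a full name, 19 were already at least 0.5 log2 units from control at day 3 and further away on the same side at day 14. Another 13 were less than 0.5 from control at day 3 and at least 0.5 away at day 14. For 2 genes, Fzd6 and Tm6sf1, the control change was at least 50% of the rotenone change, and 6 genes met none of the rules. The rule for a return towards control asked for at least 0.5 from control at day 3 and a distance smaller by at least 50% at day 14. Of these called genes 0 met it.

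**Figure D1:**
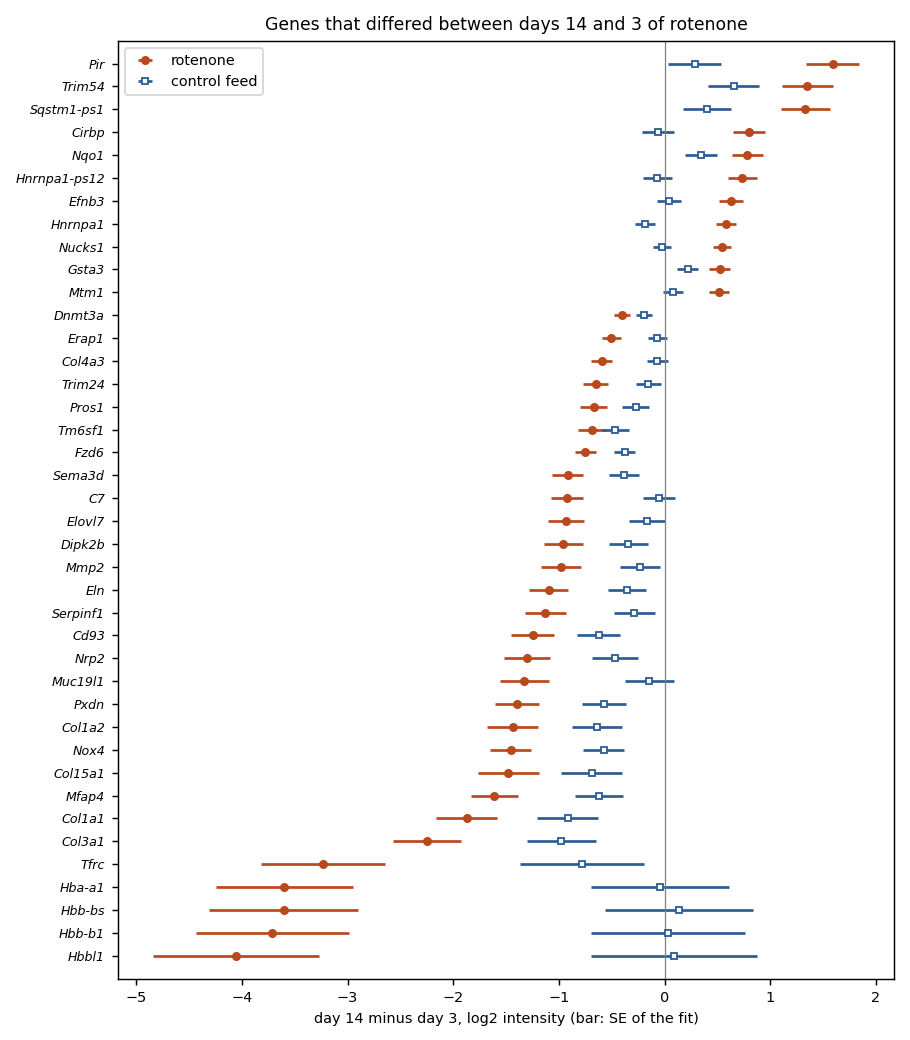
Difference in log2 intensity between day 14 and day 3 for the 40 named genes called in rotenone rats (filled circles) and in control rats (open squares), with the SE of the fit as bars and 4 rats per group. Globins and Tfrc lie farthest to the left at -3.23 to -4.06, the fibrillar collagens between -1.44 and -2.25, and control values run from -0.98 to 0.66.

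Some genes of the extracellular matrix that were below control at day 3 fell further. Col3a1, Col1a1 and Col1a2, which code for the chains of the main fibrillar collagens of the heart, were 3 of 15 fibrillar collagen genes called, all lower. The median of that list was -0.46 in rotenone rats and -0.39 in control rats, where the medians of all genes were 0.00698 and 0.014. At an unadjusted p of 0.05, 8 of the 15 were lower in rotenone rats and 8 in control rats, where 5.23% and 3.11% of all genes were lower. Col3a1 had log2 intensities of 11.88, 12.03, 12.33 and 13.15 at day 3 of rotenone and of 11.15, 9.57, 9.78 and 9.91 at day 14. Control rats had 14.28, 14.50, 14.02 and 14.13 at day 3 and 13.89, 12.55, 13.10 and 13.50 at day 14. All rotenone rats lay below all control rats of the same day, and the day 14 rats below the day 3 rats. Col3a1 fell by 2.25 ± 0.32 (SE, n = 4 rats per group, adjusted p = 0.00797), 4.75-fold, against -0.98 in control rats. Its distance from control was -1.89 at day 3 and -3.16 at day 14. The difference between the feeds was -1.27 ± 0.46 (unadjusted p = 0.0113, limma) and was not called.

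Col1a1 fell from 10.44, 11.33, 11.22 and 11.84 at day 3 to 10.13, 8.95, 8.94 and 9.33 at day 14. The highest day 14 value, of rat 1, was close to the lowest day 3 value. The change was -1.87 ± 0.29 (adjusted p = 0.0163) with -0.92 in control rats, and its distance from control went from -1.78 to -2.74. Col1a2 fell by 1.44 ± 0.24 (adjusted p = 0.0235) with -0.64 in control rats. Fewer fibroblasts and less of these transcripts in each fibroblast cannot be told apart in tissue RNA. Of 10 fibroblast markers, Col1a1 was the 1 called, and the median of the list was -0.11 in rotenone rats and -0.17 in control rats. Their mean level ran from 10.16 to 10.81 in rotenone rats at day 3 and from 10.07 to 10.48 at day 14, so those ranges overlapped, and the part of cell number in the result was not tested.

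Some genes that shape or link the fibres fell as well. Mfap4, a glycoprotein of elastic microfibrils, had 10.16, 11.37, 11.16 and 11.31 at day 3 and 9.87, 9.38, 9.10 and 9.20 at day 14, with control rats between 11.86 and 13.11 on both days. The groups did not overlap. Mfap4 fell by 1.61 ± 0.23 (adjusted p = 0.00702), 3.05-fold, against -0.62 in control rats, and kept its call in 7 of the 8 fits that left out 1 rotenone array. Eln, which codes for elastin, fell by 1.10 ± 0.18 (adjusted p = 0.0227). It was -0.28 from control at day 3 and -1.02 at day 14, so its distance from control came late. Mmp2, a protease that degrades collagen, fell by 0.98 ± 0.19 (adjusted p = 0.049), and Serpinf1, a secreted inhibitor of vessel growth, fell by 1.13 ± 0.20 (adjusted p = 0.0325). Of 22 collagen processing enzymes 0 were called by limma and 10 were lower at an unadjusted p of 0.05, where 5.23% of all genes were, against 5 in control rats, where 3.11% were. In each feed 19 of the 22 had a lower value. Serpinh1, the chaperone of collagen in the endoplasmic reticulum, changed by -1.06 ± 0.23 (adjusted p = 0.104) and Loxl2, which crosslinks collagen, by -0.70 ± 0.17 (adjusted p = 0.149). Of 23 microfibril and small proteoglycan genes, Mfap4 and Eln were the 2 called, where 0.131% of all genes were called lower. At an unadjusted p of 0.05, 6 were lower with rotenone and 7 in control rats, where 5.23% and 3.11% of all genes were.

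Nox4, an oxidase that makes hydrogen peroxide, and Pxdn, a peroxidase that uses it to crosslink collagen IV, fell together. Nox4 had 8.60, 8.00, 8.23 and 8.47 at day 3 and 6.94, 6.51, 7.18 and 6.85 at day 14, and control rats had 9.34, 9.03, 9.41 and 8.80 and then 8.87, 8.14, 8.68 and 8.59. There was no overlap between the rotenone groups, and rat 1 did not stand apart here. Nox4 fell by 1.45 ± 0.19 (adjusted p = 0.00512), although both rotenone means, 8.32 and 6.87, lay under the background bound, so the size is uncertain. Pxdn had 11.35, 11.63, 11.55 and 11.86 at day 3 and 10.36, 10.02, 10.21 and 10.21 at day 14. It fell by 1.40 ± 0.21 (adjusted p = 0.00951) against -0.58 in control rats.

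**Figure D2:**
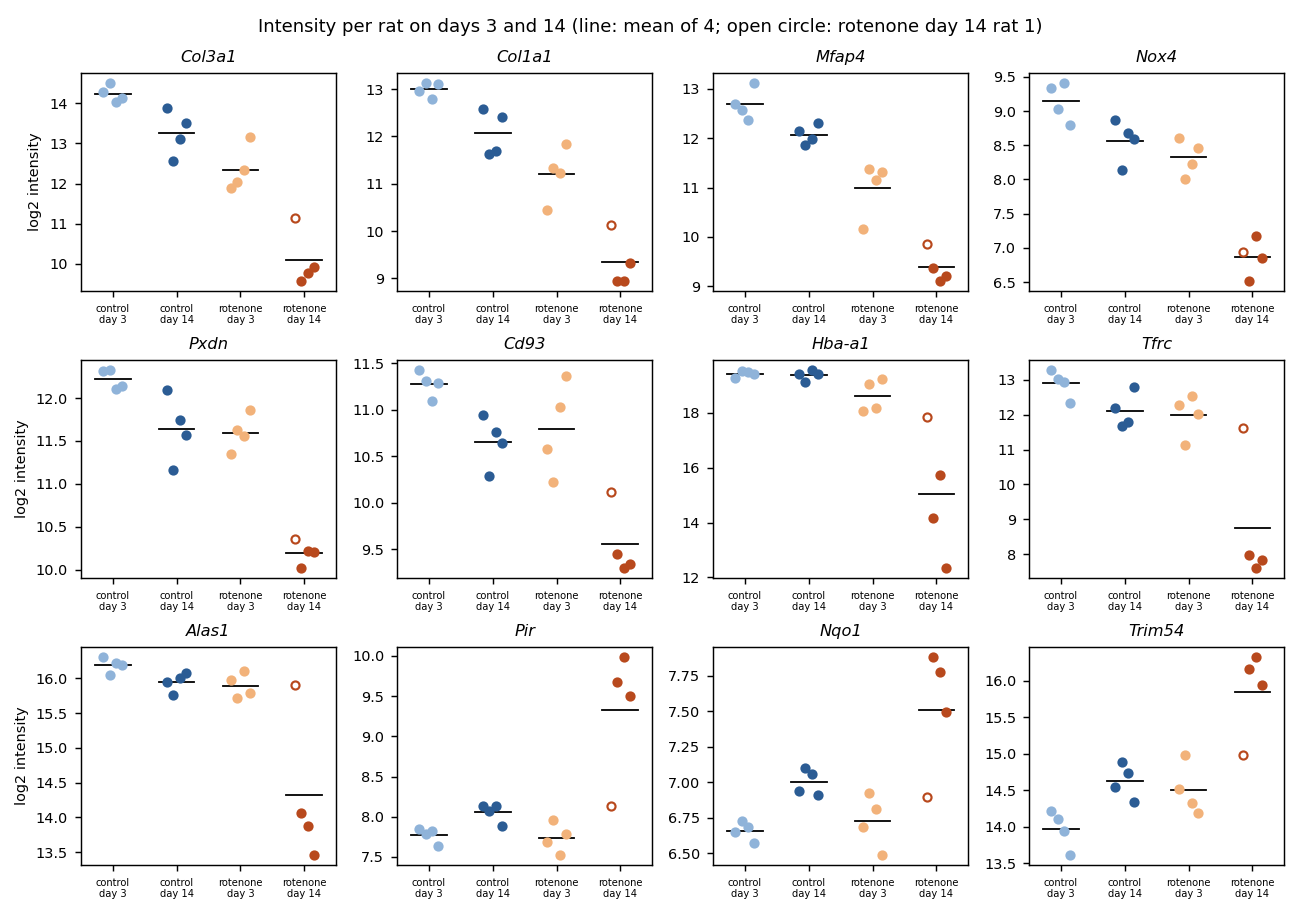
Log2 intensity of 12 genes in each rat of 4 groups, with the group mean as a line and rotenone day 14 rat 1 as an open circle. Col3a1, Col1a1, Mfap4, Nox4, Pxdn and Cd93 have day 14 values below all day 3 values, while for Alas1, Tfrc and Nqo1 rat 1 lies among the day 3 values.

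Basement membrane genes showed the same direction. Of 18, 2 were called, Col15a1 and Col4a3, both lower, where 0.131% of all genes were. At an unadjusted p of 0.05, 14 were lower with rotenone and 6 in control rats, where 5.23% and 3.11% of all genes were. The list median was -0.48 with rotenone and -0.24 in controls. Col4a3 had a mean over all 24 arrays of 6.86, under the background bound. Col15a1, a collagen of the basement membrane zone, fell by 1.48 ± 0.29 (adjusted p = 0.049), from 9.82, 9.69, 10.41 and 10.62 to 9.62, 8.37, 8.32 and 8.29. Rat 1 lay just under the day 3 rats and far above its own group. Several members lay just past the threshold. Nid1, which links laminin to collagen IV, changed by -1.15 ± 0.23 (adjusted p = 0.0538). Hspg2, the proteoglycan perlecan, changed by -0.80 ± 0.16 (adjusted p = 0.0515) and Col4a1, a chain of collagen IV, by -1.14 ± 0.23 (adjusted p = 0.062). Without rotenone day 14 rat 1, 8 of 18 were called, all lower (Col4a1, Col4a2, Col4a3, Col4a5, Col15a1, Nid1, Hspg2 and Sparc), where 0.733% of all genes were called lower.

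Next are 4 called genes of the vessel wall, of guidance signals and of plasma, grouped here after their values were seen. Cd93, a glycoprotein of endothelial cells, had 10.58, 10.22, 11.03 and 11.36 at day 3 and 10.11, 9.45, 9.29 and 9.34 at day 14. It fell by 1.25 ± 0.20 (adjusted p = 0.0224), with -0.62 in control rats. Nrp2, a receptor for semaphorins and vascular growth factors, fell by 1.30 ± 0.21 (adjusted p = 0.0224), and Sema3d, a semaphorin, fell by 0.92 ± 0.14 (adjusted p = 0.0163). Pros1, a plasma protein that limits clotting, fell by 0.67 ± 0.13 (adjusted p = 0.049). Of 11 endothelial markers 0 were called by limma. At an unadjusted p of 0.05, 5 were lower, where 5.23% of all genes were, and 0 in control rats, where 3.11% were. Among the 5 was Tie1 (-0.81 ± 0.20, adjusted p = 0.164), and the list median was -0.34 with rotenone and -0.13 in controls. Their mean level ran from 11.7 to 12.05 at day 3 and from 11.31 to 11.8 at day 14. The part of the endothelial cell number in these falls was not tested.

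C7, a component of complement, had one of the falls with little control change. Its values were 15.24, 15.71, 15.82 and 15.82 at day 3 and 14.81, 14.82, 14.47 and 14.78 at day 14, and control rats lay between 15.44 and 16.15 on both days. C7 fell by 0.93 ± 0.15 (adjusted p = 0.0219) with -0.05 in control rats. The difference between feeds was -0.87 ± 0.21 (unadjusted p = 0.000484, limma). Smaller falls were those of Trim24, a transcription coregulator (by 0.65), Erap1, an aminopeptidase of the endoplasmic reticulum (by 0.50), and Dnmt3a, a DNA methyltransferase (by 0.41), and Elovl7, a fatty acid elongase, fell by 0.94 with -0.81 from control at day 3. Tm6sf1, Muc19l1, Dipk2b and Col4a3, the last a chain of collagen IV, fell too, with changes of -0.69, -1.33, -0.96 and -0.60. Elovl7, Muc19l1, Dipk2b and Col4a3 had means over all 24 arrays of 8.13, 7.36, 7.44 and 6.86, under the background bound, so the sizes are uncertain. Fzd6, a receptor for Wnt proteins, had the smallest p among genes. It fell from 9.51, 9.25, 9.50 and 9.54 to 8.64, 8.51, 8.83 and 8.82. It fell by 0.75 ± 0.10 (adjusted p = 0.00512), but control rats had -0.38, and at day 3 it was -0.03 from control. Fzd6 and Nox4 were the 2 of 42 genes that kept their call in each of 8 fits that left out 1 rotenone array in turn.

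The globins had the largest falls of all named genes. Hba-a1, an alpha globin, had 18.06, 19.06, 18.19 and 19.22 at day 3 and 17.87, 14.17, 15.75 and 12.34 at day 14, while control rats stayed between 19.13 and 19.57 on both days. The day 14 rats spread more widely than the other 3 groups, with rat 1 just under the day 3 rats and rat 4 far below. Hba-a1 fell by 3.60 ± 0.65 (adjusted p = 0.0398), 12.1-fold, with -0.04 in control rats, and by 4.54 without rat 1 (adjusted p = 3.17e-05). That was the only 1 of the 8 fits leaving out 1 rotenone array in which Hba-a1 kept its call. In the others its adjusted p rose to as much as 0.164. The SE comes from 1 spread pooled over all 6 groups, so it is too small where 1 group varies more than the rest, as here. Hbb-bs, Hbb-b1 and Hbbl1, beta globins, fell too, with changes of -3.61 ± 0.70, -3.71 ± 0.73 and -4.06 ± 0.78 (adjusted p = 0.049, 0.0497 and 0.049). These genes are near-identical copies whose probes may share transcripts, so they are not separate evidence. Of the 11 globins listed 3 were called, all lower (Hbbl1 was not on the list), where 0.131% of all genes were called lower, and 7 were lower at an unadjusted p of 0.05, where 5.23% were. Hba-a3 and Hbb lay just past the threshold, with -3.29 ± 0.64 and -2.05 ± 0.42 (adjusted p = 0.0505 and 0.0705). Hbz, Hbg1 and Hbe1, which resemble embryonic globins and lay under the background bound, had differences of -0.28, -0.10 and 0.13.

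Iron uptake and heme synthesis are described by 3 genes, of which Tfrc was called. Tfrc, the transferrin receptor, had 12.27, 11.12, 12.52 and 12.02 at day 3 and 11.61, 7.97, 7.60 and 7.83 at day 14. Rats 2, 3 and 4 lay under the background bound and rat 1 among the day 3 rats, so the groups overlapped. Tfrc fell by 3.23 ± 0.59 (adjusted p = 0.0404), and by 4.18 without rat 1 (adjusted p = 1.16e-06), with -0.78 in control rats. That was the only 1 of the 8 fits leaving out 1 rotenone array in which Tfrc kept its call, and its adjusted p reached 0.199 in the others. Alas1, the rate-limiting enzyme of heme synthesis outside red cells, showed the same split, with 15.97, 15.72, 16.10 and 15.78 at day 3 and 15.90, 14.06, 13.88 and 13.46 at day 14. Control rats had values between 15.76 and 16.31 on both days. Its difference was -1.57 ± 0.31 (adjusted p = 0.0526) with all rats and -2.09 without rat 1 (adjusted p = 4.81e-07). Alas2, its counterpart in red cell precursors, changed by -3.07 ± 0.61 (adjusted p = 0.054), from 8.25, 9.71, 8.70 and 10.15 to 8.07, 5.56, 6.11 and 4.79. Of 28 red cell precursor genes, Tfrc was the 1 called, 14 had a higher value and 14 a lower one, and the list median was 0.00574. Only 8 of the 28 had a mean above the background bound, so the even split and the median rest largely on genes at low signal. At an unadjusted p of 0.05, 7 were lower and 1 higher, where 5.23% and 4.39% of all genes were. In control rats 0 were lower and 1 higher, where 3.11% and 3.17% were.

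Some enzymes against oxidants and foreign compounds rose. Pir, a nuclear iron-binding protein, had 7.68, 7.96, 7.52 and 7.78 at day 3 and 8.14, 9.68, 9.99 and 9.50 at day 14, with control rats between 7.63 and 8.14 on both days. Rat 1 was at the top of the control range and the other 3 rats above it. Pir rose by 1.59 ± 0.25 (adjusted p = 0.0163) against 0.28 in control rats, and by 1.99 without rat 1 (adjusted p = 4.81e-07). Pir kept its call in 3 of the 8 fits that left out 1 rotenone array. Its day 3 values and all control values lay under the background bound, so the size is uncertain. Nqo1, which reduces quinones, had 6.69, 6.92, 6.81 and 6.49 at day 3 and 6.90, 7.88, 7.77 and 7.49 at day 14. It rose by 0.78 ± 0.15 (adjusted p = 0.049) with 0.34 in control rats, rat 1 lay among the day 3 rats, and all its means were under the background bound. Gsta3, a glutathione transferase, rose by 0.52 ± 0.10 (adjusted p = 0.049), from 4.71 to 5.23, both near the median of the negative controls. The promoters of Pir and Gsta3 are the ones printed above with the antioxidant core.

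Nqo1 was 1 of 32 antioxidant genes called, and Gsta3 1 of 41 detoxification genes. At an unadjusted p of 0.05, 10 of 32 and 13 of 41 were higher, where 4.39% of all genes were, and in control rats 5 and 10, where 3.17% were. The list medians were 0.15 and 0.21 in rotenone rats and 0.09 and 0.22 in control rats. Txnrd1, thioredoxin reductase, had 9.46, 9.63, 9.63 and 9.44 at day 3 and 10.13, 10.30, 10.58 and 9.94 at day 14, with no overlap. Its difference of 0.70 ± 0.14 was not called (adjusted p = 0.0653). Gclm, a subunit of the enzyme that starts glutathione synthesis, was -0.52 from control at day 3 and 0.03 at day 14, with a difference of 0.57 ± 0.12 (adjusted p = 0.0986). Cyp2e1, a cytochrome of drug and ketone metabolism, had a wide spread, from 7.25 in rat 1 to 12.46 in rat 4 at day 14 (2.17 ± 0.64, adjusted p = 0.324). Without rat 1, Nqo1, Hmox1, Gclm, Txnrd1 and Cat were called higher, as were Cyp2e1, Ephx1, Gsta1, Gsta3 and Gsta4, where 0.602% of all genes were called higher. Sqstm1-ps1 rose by 1.33 ± 0.23 (adjusted p = 0.0295). It is named as a pseudogene of the autophagy receptor Sqstm1, which had 1.07 ± 0.22 (adjusted p = 0.0744), and probes of the pair may read the same RNA.

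The other called rises belong to no list. Trim54, a ubiquitin ligase of striated muscle, had 14.52, 14.98, 14.33 and 14.19 at day 3 and 14.98, 16.16, 16.33 and 15.94 at day 14. Rat 1 lay at the level of the highest day 3 rat and the other 3 above all. Trim54 rose by 1.35 ± 0.24 (adjusted p = 0.0388), 2.55-fold, and by 1.64 without rat 1, and control rats had 0.66. Trim54 kept its call in 2 of the 8 fits that left out 1 rotenone array. Hnrnpa1, a splicing factor, rose by 0.58 ± 0.10 (adjusted p = 0.0239) with -0.19 in control rats, and it had the smallest p for the difference between feeds among named genes (0.77 ± 0.14, unadjusted p = 1.5e-05, limma, not called). Cirbp and Rbm3 are RNA-binding proteins known for induction by cold. Cirbp had 8.13, 8.25, 7.97 and 7.98 at day 3 and 8.23, 9.15, 8.93 and 9.20 at day 14, and rose by 0.80 ± 0.15 (adjusted p = 0.0437), with rat 1 again among the day 3 rats, and by 1.01 without it. Most of these values lay under the background bound. Cirbp kept its call in only 1 of the 8 fits that left out 1 rotenone array. Rbm3 had a difference of 0.77 ± 0.19 (adjusted p = 0.185) with -0.55 in control rats. Nucks1, a chromatin protein, rose by 0.54 ± 0.09 (adjusted p = 0.0198), Efnb3, an ephrin, by 0.63 ± 0.12 and Mtm1, a lipid phosphatase of muscle, by 0.52 ± 0.10. These 3 had control values between -0.03 and 0.08. Hnrnpa1-ps12, named as a pseudogene of Hnrnpa1, rose by 0.74 ± 0.14 (adjusted p = 0.0437), and the pair may share probes. A further 2 genes that rose, LOC102546310 by 0.65 and LOC102549131 by 0.73, have only a locus name.

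Of the cytosolic ribosome, 51 genes were measured and all 51 had a higher value at day 14 with rotenone. In control rats 44 of the 51 had a higher value, and of all 22093 genes 11450 had one with rotenone. By limma 0 were called, and 23 were higher at an unadjusted p of 0.05, where 4.39% of all genes were, against 0 in control rats. Without rotenone day 14 rat 1, 7 were called, all higher, where 0.602% of all genes were called higher. The list median was 0.28 with rotenone and 0.10 in controls. Rps25 had 10.93, 10.79, 10.86 and 10.90 at day 3 and 11.05, 11.56, 11.70 and 11.33 at day 14, a difference of 0.54 ± 0.14 (adjusted p = 0.232). The 51 genes are measured in the same rats and move with each other, so they do not count as 51 results. The mean level of the list was 11.51 to 12.12 at day 14 and 11.54 to 11.7 at day 3.

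**Figure D3:**
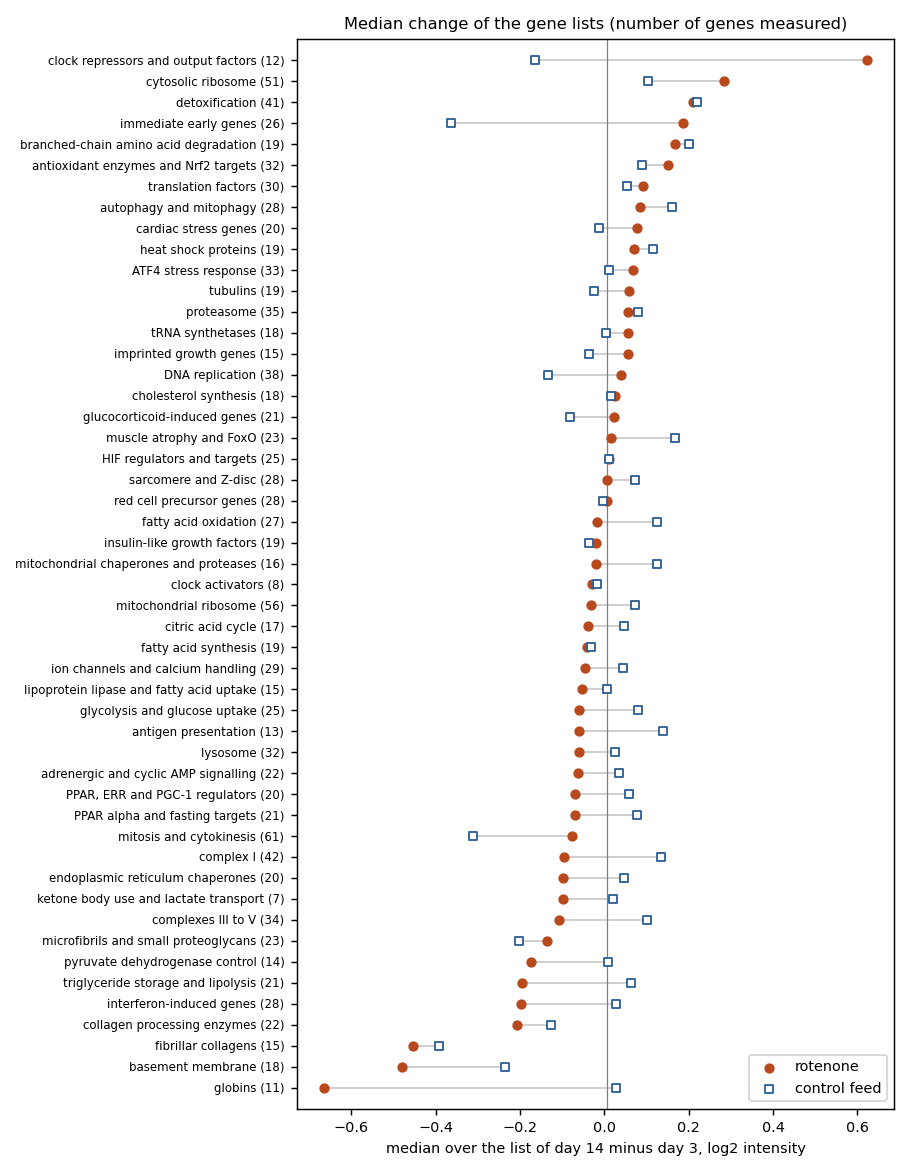
Median difference between day 14 and day 3 over the measured genes of 50 lists, in log2 units, for rotenone rats (filled circles) and control rats (open squares), with the median of all genes as a vertical line. Clock repressors and ribosomal genes lie to the right at 0.62 and 0.28, and globins, basement membrane and fibrillar collagens to the left at -0.66, -0.48 and -0.46.

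Clock repressors and output factors had the highest list median. All 12 repressors and output factors had a higher value at day 14 with rotenone, 9 at an unadjusted p of 0.05 and 0 by the adjusted p of limma. Of all genes 4.39% were higher at an unadjusted p of 0.05. In control rats 4 of the 12 had a higher value, 1 of them at an unadjusted p of 0.05, where 3.17% of all genes were. The list median was 0.62, against -0.16 in control rats, and 3 of the 12 had a mean above the background bound. Against control of the same day, 2 of the 12 were called higher at day 3, where 0.643% of all genes were, and 7 at day 14, where 2.23% were. Per2, a core repressor, had 7.06, 7.53, 6.65 and 7.39 at day 3 and 6.95, 8.49, 8.20 and 8.67 at day 14 (0.92 ± 0.28, adjusted p = 0.344). Cry2 had 7.99, 8.15, 7.51 and 7.97 and then 7.74, 8.82, 9.14 and 8.98 (0.76 ± 0.22, adjusted p = 0.304). In both genes rat 1 lay at the level of day 3 and the other 3 rats above all day 3 rats. Dbp, an output factor, had 7.34, 8.90, 7.69 and 9.30 at day 3 and 8.81, 9.28, 9.22 and 9.20 at day 14. Its difference was 0.82 ± 0.28 (adjusted p = 0.412), and the day 3 rats fell into pairs, with rats 2 and 4 near the day 14 level. Nr1d2, a reverse-erb repressor, was already 2.33 above control at day 3 and 2.65 above at day 14, while Per1 had a difference of 0.07 ± 0.42.

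The 8 clock activators split, with 4 higher and 4 lower values and a median of -0.03 against -0.02 in control rats. At an unadjusted p of 0.05, 1 was higher and 3 were lower, where 4.39% and 5.23% of all genes were. Bhlhe41, a repressor on that list that belongs to the same loop, had the highest value (0.77 ± 0.26, adjusted p = 0.414). Bmal1, the activator that reverse-erb proteins repress, had 10.05, 8.66, 9.76 and 8.28 at day 3 and 8.98, 7.19, 7.34 and 7.39 at day 14, with control rats between 10.30 and 10.64 on both days. Rats 2 and 4 of day 3, the pair that was high for Dbp, were low for Bmal1. The difference was -1.46 ± 0.33 (adjusted p = 0.115), and -1.88 without rat 1 (adjusted p = 0.00171). Npas2 had -0.86 ± 0.21 (adjusted p = 0.173) and Clock -0.48 ± 0.13 (adjusted p = 0.274). Without rat 1, 8 clock genes were called, Per2, Per3, Cry2, Tef and Wee1 higher and Bmal1, Clock and Npas2 lower, where 0.602% of all genes were called higher and 0.733% lower. In that fit the difference between feeds passed the threshold for Per2 and Cry2 too (1.63 and 1.23, adjusted p = 0.0479 and 0.0419). Each of these 8 clock genes was called between the days in only 1 of the 8 fits that left out 1 rotenone array. Rat 1 was singled out on these same values, so the calls without it describe how far the result rests on it and are no further test. Whether the hour of sampling moved with the groups was not tested.

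**Figure D4:**
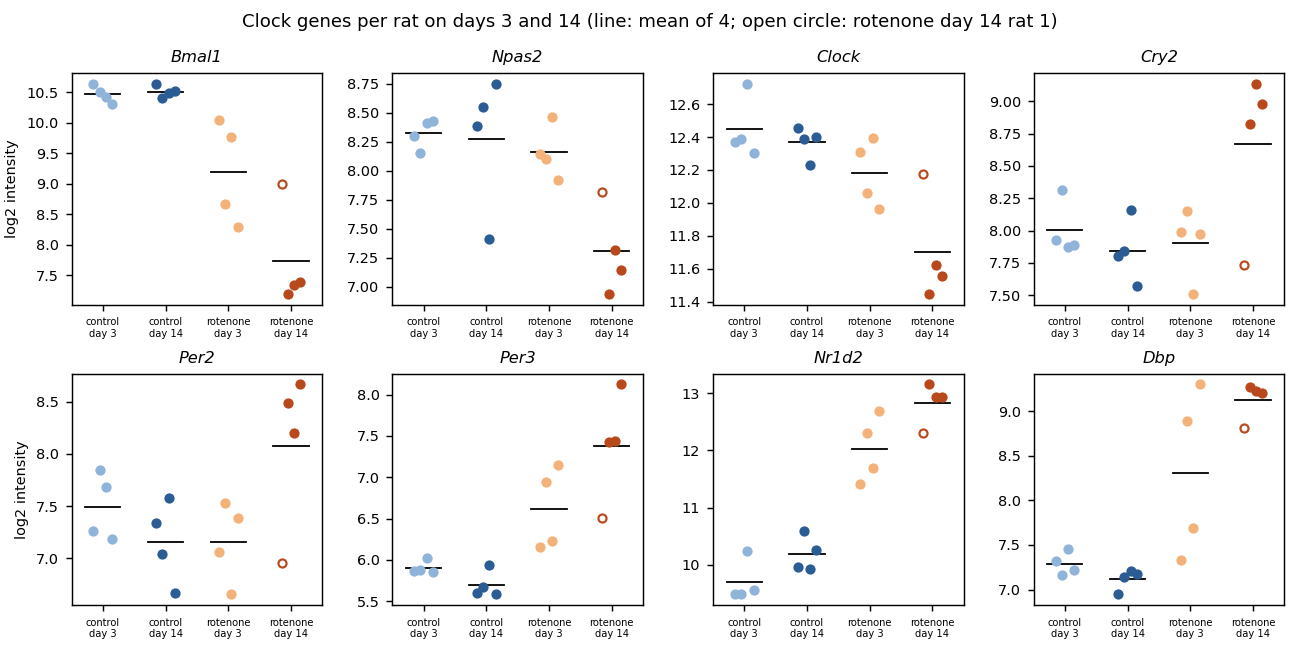
Log2 intensity of 8 clock genes in each rat of 4 groups, with the group mean as a line and rotenone day 14 rat 1 as an open circle. Control rats keep nearly the same level of Bmal1 on both days, between 10.30 and 10.64, and all rotenone rats lie below them, with rotenone day 14 rat 1 at 8.98 among the day 3 rats.

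The distance of rotenone rats from control rats of the same day was called for 448 genes at day 3 (2.03%) and 1285 at day 14 (5.82%). Of the 40 named genes called between the days 0 met the rule for a return towards control. That rule was applied to no other genes, so how many of the 448 distances had closed by day 14 was not counted. Genes of mitosis and cytokinesis were below control by a median of 0.61 at day 3 (32 of 61 called lower, where 1.39% of all genes were) and by 0.36 at day 14 (20 of 61, where 3.59% were). Of the 61 genes, 0 had a mean above the background bound. Their mean level in rotenone rats was 5.255 at day 3 and 5.178 at day 14, near the negative control median of 4.961. A further fall in rotenone rats could therefore hardly be measured, and the narrowing of the distance is no measure of recovery. The list median changed by -0.08 in rotenone rats and by -0.31 in control rats, 37 of whose 61 genes were lower at an unadjusted p of 0.05. Mki67, a marker of dividing cells, had 6.07, 6.20, 6.20 and 6.92 at day 3 and 6.16, 5.60, 5.54 and 5.45 at day 14 of rotenone. Control rats had 9.41, 9.57, 9.05 and 9.34 and then 9.10, 6.73, 8.24 and 8.41. Its distance from control was -3.00 at day 3 and -2.43 at day 14, with both rotenone means under the background bound. Much of this narrowing rested on control day 14 rat 2, the lowest of its group in Mki67 and in the list. Without it the distance of Mki67 at day 14 was -2.90, the list median at day 14 was -0.48 with 31 of 61 called lower, and 16 genes were lower in control rats at an unadjusted p of 0.05. Immediate early genes, which respond within minutes to stimuli, had list medians of 0.19 with rotenone and -0.37 in controls. Fos ranged from 5.17 to 5.85 at day 3 and from 4.78 to 6.70 at day 14, while control rats ran from 5.98 to 9.29 at day 3 and from 5.20 to 6.80 at day 14. Fos was -1.90 from control at day 3 and -0.04 at day 14.

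Genes of fuel use had no called change after day 3 when all rats were used. In the lists of PPAR alpha and fasting targets, fatty acid oxidation, glycolysis, the citric acid cycle, complex I and complexes III to V, limma called 0 genes between days 3 and 14. These lists hold 21, 27, 25, 17, 42 and 34 measured genes. At an unadjusted p of 0.05 they had 2, 4, 0, 0, 0 and 0 genes higher and 3, 2, 3, 1, 3 and 6 lower, where 4.39% and 5.23% of all genes were. Without rotenone day 14 rat 1, 1, 1, 3, 1, 0 and 2 genes of these lists were called, all lower, namely Plin5, Acot13, Pgk1, Pgam2, Ldha, Idh3a, Uqcrq and Atp5mc1, where 0.733% of all genes were called lower. With all rats the list medians lay between -0.11 and -0.02 with rotenone and between 0.05 and 0.135 in controls. Of 42 complex I genes, 35 had a lower value with rotenone and 38 a higher value in control rats. Of 34 genes of complexes III to V, these counts were 29 and 30. Of all 22093 genes, 10643 had a lower value with rotenone and 11994 a higher one in control rats. Members of a list move with each other, so they do not count as separate results. Txnip, an inhibitor of glucose uptake, was 2.65 above control on both days. Pdk4, the kinase that shuts off pyruvate dehydrogenase, had 16.21, 16.09, 16.81 and 16.31 at day 3 and 16.47, 16.33, 16.52 and 14.38 at day 14, a difference of -0.43 ± 0.61 (adjusted p = 0.968) in which rat 4 stood low. Angptl4, an inhibitor of lipoprotein lipase, had 0.20 ± 0.47. Ucp3, a mitochondrial carrier of muscle, had -0.86 ± 0.30 (adjusted p = 0.435), with distances from control of 1.41 and 0.82. These p-values do not show that the genes held their level.

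Further lists had 0 calls by limma. Genes of branched-chain amino acid degradation had 7 of 19 higher at an unadjusted p of 0.05, and 8 of 19 in control rats, where 4.39% and 3.17% of all genes were. Their medians were 0.17 and 0.20. Interferon-induced genes had 6 of 28 lower at an unadjusted p of 0.05, where 5.23% of all genes were, and 0 in control rats, where 3.11% were. Their median was -0.20, against 0.03 in controls. Vldlr, a lipoprotein receptor, had 12.23, 12.01, 12.09 and 12.07 at day 3 and 11.93, 11.56, 11.62 and 11.42 at day 14, with -0.47 ± 0.09 (adjusted p = 0.0615) and 0.13 in control rats.  Among single genes that the study discusses, Igf1, a growth factor, had -0.44 ± 0.21 with rotenone and -0.57 in controls, and Igfbp2, Srebf1, Srebf2, Hyou1, Fgf21 and Sat2 had differences between -0.09 and 0.15.

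How far the counts rest on single rats was measured by leaving out each of the 16 arrays of days 3 and 14 in turn. Without rotenone day 14 rat 1, 448 transcript clusters were called (223 higher, 225 lower), all 60 among them, and 32 for the difference between feeds. Those 448 held 295 genes, 1.34% of all, and the 32 held 22 genes, 0.0996%. Among the 22 were Alas1, Pir, Cirbp, Tfrc, Hba-a1, Rbm3 and Hnrnpa1. Without rat 2, 3 or 4 of that group, 6, 7 and 3 transcript clusters were called, and without a rotenone day 3 rat 35, 20, 9 and 9. Leaving out a control array, which changes only the spread, gave 25 to 52. Of the 42 called genes, 2 kept their call in all 8 fits that left out 1 rotenone array. Another 17 kept it in only 1 of these fits, the one without rotenone day 14 rat 1. Among the 17 were Hba-a1, Tfrc, Cirbp, Nqo1 and Gsta3.

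**Figure D5:**
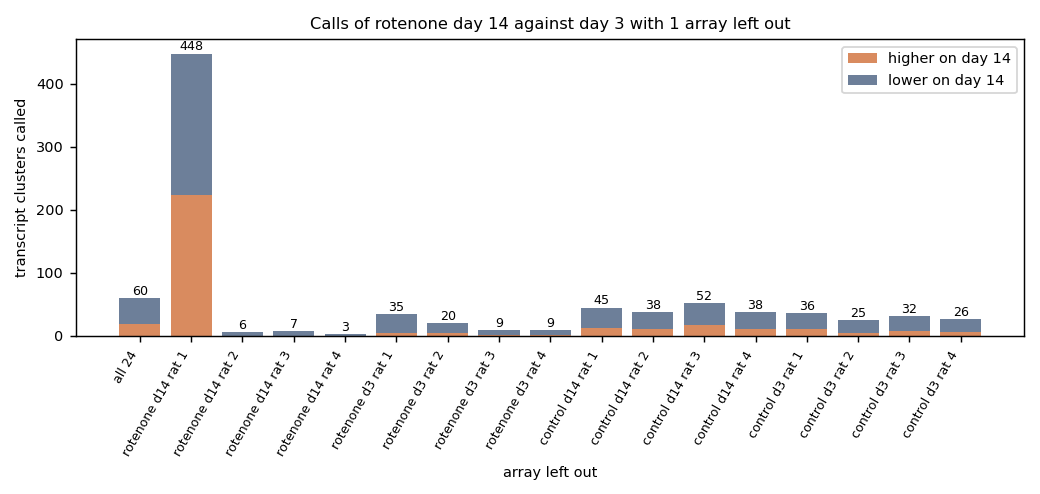
Number of transcript clusters called between days 14 and 3 of rotenone in the fit of all 24 arrays and with 1 array left out, stacked by direction. The count is 60 with all arrays, 448 without rotenone day 14 rat 1, and 3 to 7 without any other rat of that group.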

How the data were processed

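RNA from the left ventricular apex of single rats was hybridised to Affymetrix RTA 1.0 arrays, 1 per rat. The authors processed the arrays with a guanine cytosine count correction (GCCN) and signal space transformation (SST), and then condensed them with RMA (no version given). They deposited a table of linear intensity per transcript cluster. Here log2 of the deposited intensity was taken with no further normalization. Of 70580 rows, 1738 array controls were left out and 68842 tested, of which 23446 had 1 gene symbol in the platform annotation, 505 several and 44891 none. For the 1182 genes with several transcript clusters the brightest on average stood for the gene, and 1 old symbol was updated. The number of arrays, 4 per group, limits the precision, and the median residual SD was 0.268 log2 units. Groups came from the labels, which give each array as 1 animal.

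A limma model (limma 3.58.1, R 4.3.3) of 6 group means was fitted to all 24 arrays, with contrasts for day 14 minus day 3 in each feed and for their difference, and p-values were adjusted by Benjamini-Hochberg over 68842 transcript clusters. The procedure was tested on simulated data first. Genes were named by a rule: the 14 largest called rises and falls without overlap and above the background bound, the 8 smallest p of the difference between feeds in each direction, up to 4 genes per list, 5 per class of course relative to control, and genes the study discusses. Other called genes and further members of the lists were added after their values were seen. The members and the 62 lists (50 pathway, 12 cell type marker; 1376 of 1447 symbols measured) were chosen with earlier results of these data known. Motifs and figures were made with Python 3.11.15, pandas 2.3.3 and matplotlib 3.10.9. Scaling, filters, an offset, variance models, the arrays entering the fit, a replicate block, a minimum fold change and leaving out each array of days 3 and 14 were tried as alternatives. No scan dates were used here.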

Additional observations from a re-analysis of the deposited data

Results flagged for a closer look

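Of 164 groups of 4 rats checked for a single rat far from the other 3, 13 had one, and chance gives about 1 in 20 groups. In rotenone rats at day 14, rat 1 stood far from its group in 4 genes. Its Tfrc was 11.61 against 7.596 to 7.971 in the others, its Col15a1 9.622 against 8.291 to 8.374, its Nrp2 10.11 against 9.264 to 9.305 and its Mtm1 10.1 against 10.25 to 10.27, each on the side of day 3. In the same group C7 of rat 3 was 14.47 against 14.78 to 14.83. In rotenone rats at day 3, Fzd6 of rat 2 was 9.252 against 9.505 to 9.537 and its Dnmt3a 8.598 against 8.516 to 8.525. Muc19l1 of rat 3 was 8.238 against 7.826 to 7.863, Nucks1 of rat 4 was 12.67 against 12.47 to 12.49, and Mmp2 of rat 1 was 10.96 against 11.72 to 11.81. In control rats at day 3, Dnmt3a of rat 4 was 8.534 against 8.673 to 8.683 and Hnrnpa1-ps12 of rat 1 was 10.91 against 10.5 to 10.54. The median log2 intensity of the array of control rat 2 at day 3 was 4.966 against 5.086 to 5.103.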

How the results depend on the processing

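The count of 60 called transcript clusters moved with most settings. It was 23 with equal array medians, 0 with only the arrays of the contrast, 5 with only the 16 arrays of both days (chosen after seeing the data) and 35 for changes of at least 1.8-fold. It was 209 over the 10140 above the background bound, 144 over those above the median of all means, 108 on log2(intensity + 16), 158 with 1 transcript cluster per gene, 99 with trended robust variances and 152 with array weights, and 56 with quantile normalization. Fewer transcript clusters tested lower the burden of adjustment in the filtered settings, and for the others the cause was not tested. With a replicate block the count was 27. The numbers do not pair the samples, since the correlations of deviations of same-numbered rats were -0.0423, 0.207, 0.0311 and -0.063 and only replicate 2 matched its own number best. Leaving out 1 rotenone array gave 3 to 448, and 0 to 32 for the difference between feeds, which otherwise was 0 except for 1 above the background bound. The control count was 0 except for 2 with 1 transcript cluster per gene.

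The 42 called genes kept their direction in all 744 fitted values and their call in 404. Of the named genes without a call, 4 turned sign in some setting. Leaving out 1 rotenone array gave Per1 -0.19 to 0.32, being negative without day 3 rat 3 or rat 4 (-0.13 each) or day 14 rat 4, Fos -0.065 (without day 14 rat 1) to 0.57, Angptl4 -0.18 (without day 14 rat 3) to 0.65, and Pdk4 -0.63 to 0.087 (without day 14 rat 4). Of 186 list medians 5 moved by over 1 SD. Of the called genes, 9 had both rotenone means under the background bound, so their changes are measured at low signal.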

Other observations

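Of the 60 called transcript clusters, 15 carried no gene symbol. Among the 22 genes called for the difference between feeds without rotenone day 14 rat 1 were several outside the lists above. Tsc22d4 had -0.94, Gpsm1 -0.72, Slc41a3, a magnesium transporter of mitochondria, -1.91 and Coq10a, which binds coenzyme Q, -0.92, while Ahnak2 had 1.43.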
